A study of Homo sapiens with 4 samples.

Results

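The genes described here were human genes with a symbol made of ZNF, a number and at most 1 further letter, whose mean normalized counts summed over all listed transcripts to at least 500. They were selected on that sum, so the height of their levels is a description and was not tested. There were 229 such genes, with 1154 transcripts, of 476 listed ZNF genes and 20298 listed genes in all. The data came from RIP-seq, which sequences the RNA that an antibody pulls down together with a protein, beside RNA kept from the lysate as input. MDA-MB-231, a triple negative breast cancer line of mesenchymal character, had been transduced with a lentivirus for 3x Flag-tagged YTHDC1. The multiplicity of infection was 4, and selection was in 2 μg/ml puromycin. It is recorded here as 4 days, a time that the paper's methods state for knockout cells of this line and not for these cells. All libraries carried the YTHDC1 overexpression, and all RNA came from the nuclei of UV-crosslinked cells. This includes the input, which the labels name total RNA. The samples were 2 anti-Flag IP libraries (Flag-YTHDC1 IP) and 2 input libraries, the labels' biological replicates. The values used are the authors' mean over these 4 libraries together, so there is no value per library, no replicate spread and no test, and the depth of each library is unknown. A level described below therefore mixes bound and input RNA and says nothing of binding.

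C2H2 zinc finger genes, most of them named ZNF, form the largest group of human transcription factor genes. Most encode tandem fingers, small loops folded around a zinc ion that together read a DNA sequence, and many also encode a KRAB domain. The KRAB domain recruits TRIM28, which brings the histone methyltransferase SETDB1 and HP1 proteins to silence retroelements and imprinted loci. A large share of KRAB zinc finger genes lies in tandem clusters on chromosome 19 that arose by duplication, and their coding sequences are often alike. The symbol is not proof of that structure, since ZNF185, for example, encodes a LIM domain protein that binds actin. YTHDC1 is the nuclear reader of the RNA mark N6-methyladenosine.

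The summed mean normalized count ranged from 504 for ZNF576 to 7010 for ZNF217, a 13.9-fold range, with a median of 1177 and quartiles of 719 and 1831. The counts were not divided by transcript length, because no lengths were used here, so their order is an order of reads assigned and not of RNA molecules. Of the 229 genes, 100 had a sum from 500 to below 1000, 79 from 1000 to below 2000, 41 from 2000 to below 4000 and 9 of 4000 or more. The 10 genes with most reads held 15.3% of the group's reads. Together the 229 genes held 1.02% of the reads of all listed transcripts. Among all 7840 listed genes with a sum of at least 500 the median was 1565 and 40.8% reached 2000, against 21.8% of the ZNF genes. The 26 ZBTB genes above the same minimum, which pair zinc fingers with a BTB domain, had a median of 1296. The 24 ZSCAN, ZKSCAN and ZFP genes, many with a SCAN domain, had a median of 964.

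**Figure D1:**
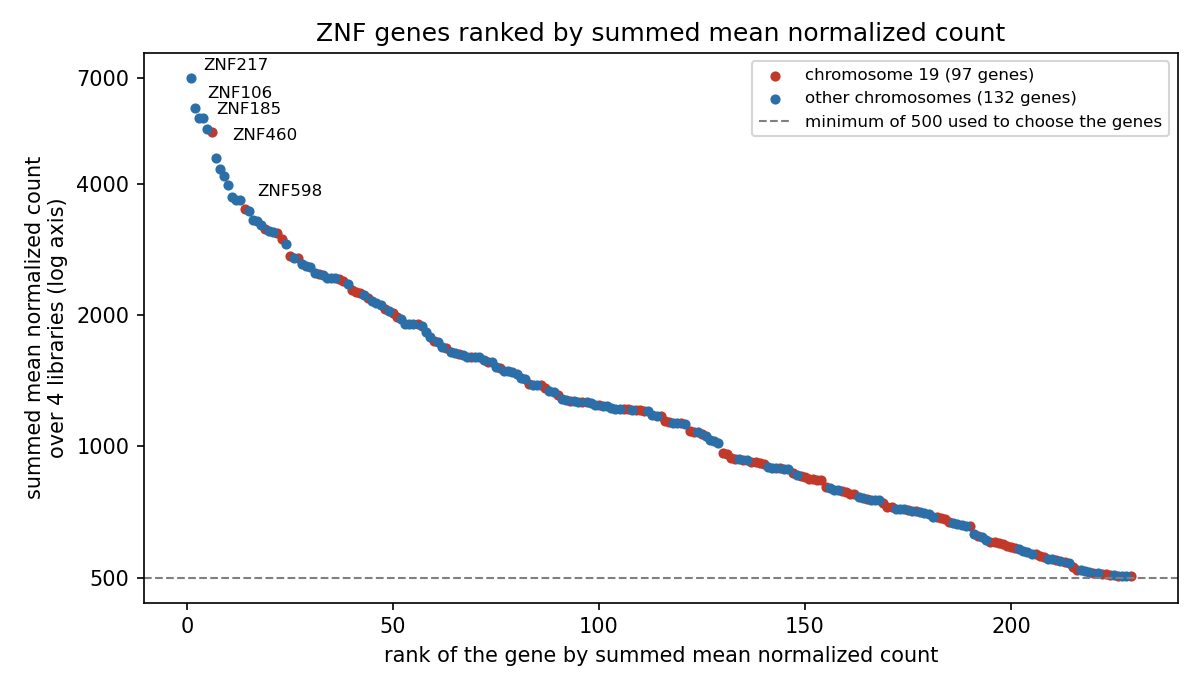
Each point is 1 of the 229 ZNF genes, with its rank on the x axis and its summed mean normalized count over the 4 libraries on a log y axis. The points fall from 7010 for ZNF217 to just above the dashed minimum of 500, and 1 of the 10 highest genes, ZNF460, lies on chromosome 19.

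At the edge of the selection, the lowest genes inside were ZNF576 with a sum of 503.5, ZNF692 with 503.7 and ZNF143 with 503.7. Just outside were ZNF585A with 498.7, ZNF248 with 498.2 and ZNF341 with 497.3. These 6 values lie close together, and no error is known for them, so whether genes on either side differ cannot be told.

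The 10 genes with the highest sums were of mixed function. ZNF217 (ENSG00000171940.13, chr20:53567071-53597702 in the GRCh38.p14 RefSeq annotation), an oncogene amplified in breast cancer, had 7010, of which ZNF217-202 held 4675 and ZNF217-201 held 2294. ZNF106 (chr15:42412823-42491141), an RNA-binding protein of the nucleus, had 5981, shared mainly by ZNF106-202 with 3145 and ZNF106-201 with 2072. ZNF185 on chromosome X had 5676 over 8 transcripts, of which ZNF185-209 with 2131 and ZNF185-205 with 1949 were highest. In these 3 genes, no single transcript carried nearly all of the reads. ZNF609, a gene of transcriptional regulation also known for a circular RNA, had 5664, of which ZNF609-201 held 5084, the highest value of any transcript in the group. ZNF462, a gene of chromatin regulation in development, had 5343 over 5 protein-coding transcripts. ZNF460, in the terminal zinc finger cluster of chromosome 19, had 5274. The other 4 were ZNF318 with 4585, ZNF646 with 4341, ZNF207 with 4173 and ZNF142 with 3976. ZNF207, also known as BUGZ, acts at kinetochores and in splicing. ZNF646 overlaps ZNF668 in the annotation, and ZNF668 had a sum of 804.

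Protein-coding transcripts took 781 of the 1154 listed transcripts, or 67.7%, and 89.3% of the group's reads. Among all genes with a sum of at least 500 these shares were 55.6% and 74.7%, and 12.1% of the reads lay in miscellaneous RNAs, a type with none in the ZNF genes. Within protein-coding, processed, retained-intron and nonsense-mediated decay transcripts together, protein-coding ones held 89.5% of the ZNF reads and 87.6% of those of all genes with that sum, so most of the difference in reads lay in other types. In the ZBTB genes they were 78.8% and 98.3%, and in the ZSCAN, ZKSCAN and ZFP genes 73.5% and 85.8%. Retained-intron transcripts, which keep an intron of the spliced mRNA, made up 129 of the ZNF transcripts, or 11.2%, against 5.05% in the ZBTB genes, 11.1% in the ZSCAN, ZKSCAN and ZFP genes and 19.3% among all genes with that sum. They held 2.93% of the ZNF reads against 3.52%. Transcripts annotated for nonsense-mediated decay, which carry a premature stop codon, made up 6.76% of ZNF transcripts and 3.94% of ZNF reads, against 9.25% and 3.44%. Processed transcripts, which lack an annotated open reading frame, made up 14.0% of ZNF transcripts and 3.57% of ZNF reads, against 13.9% and 3.57%. The share of retained-intron transcripts by number was thus below that of all genes in each of the 3 zinc finger groups, and not in the ZNF genes alone. These are descriptions of annotated types, since the type names do not show that an intron was retained or decay took place. Fewer reads of a transcript cannot be told apart from a shorter transcript.

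**Figure D2:**
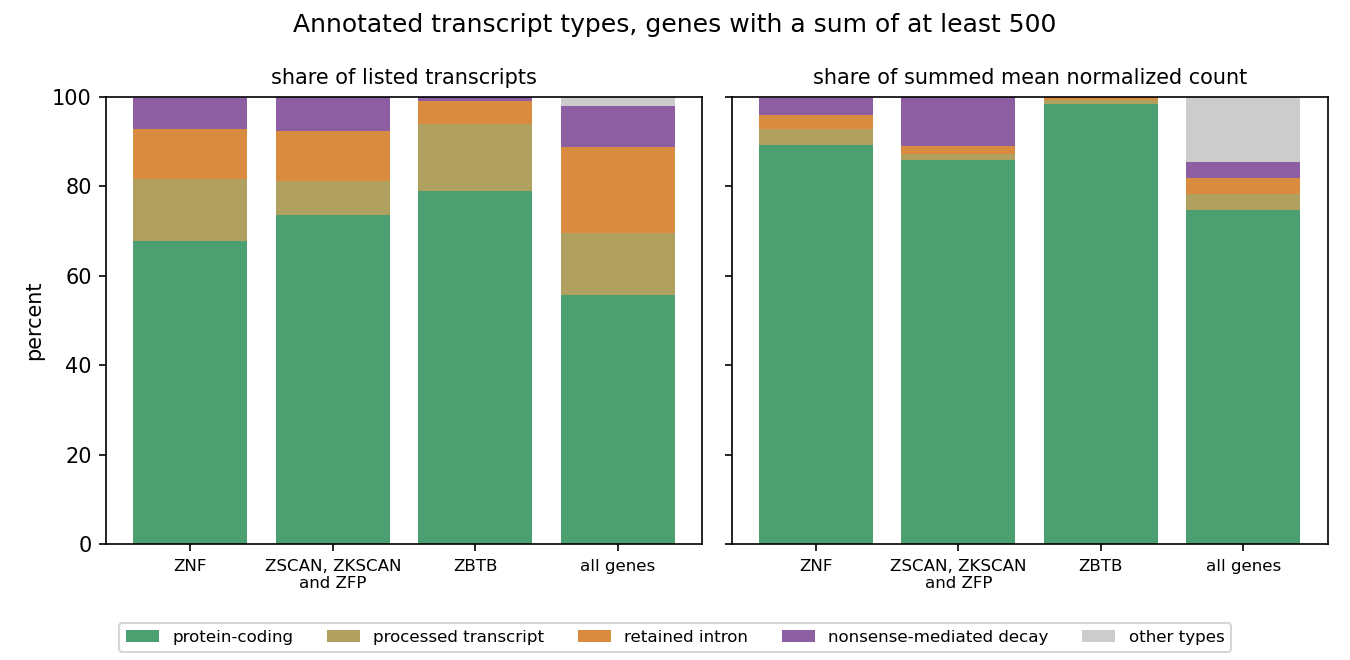
Stacked bars give the percent of listed transcripts (left) and of the summed mean normalized count (right) by annotated type for 229 ZNF genes, 24 ZSCAN, ZKSCAN and ZFP genes, 26 ZBTB genes and all 7840 genes, each with a sum of at least 500. Protein-coding transcripts hold 89.3% of the ZNF reads and 74.7% of the reads of all genes, in which other types hold 14.7%.

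Within a type the transcripts varied widely. The median protein-coding ZNF transcript had a mean normalized count of 148, with quartiles of 45.7 and 463. The median was 51.6 for nonsense-mediated decay, 31.3 for retained-intron and 25.9 for processed transcripts. The highest retained-intron transcript was ZNF598-203 with 490. Retained-intron transcripts were listed for 80 of the 229 genes and nonsense-mediated decay transcripts for 57. All reads lay in protein-coding transcripts in 78 genes.

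Most genes spread their reads over several transcripts. The median was 5 listed transcripts per gene, the same as for all genes with a sum of at least 500, and 17 genes had 1. Among the 212 genes with at least 2 transcripts, the most abundant transcript held a median of 60.7% of the gene's reads, with quartiles of 45.9% and 75.7%. The median was 60.6% for all genes with that sum, 73.6% for the ZBTB genes and 54.9% for the ZSCAN, ZKSCAN and ZFP genes. The share reached 50% in 140 of the 212 genes, 75% in 56 and 90% in 17. Across the 229 genes Spearman's rho between the number of transcripts and the sum was 0.021, a description over genes whose transcripts share 4 libraries.

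ZNF544 had the most listed transcripts, 13, with a sum of 2396, and ZNF544-201 held 58.2% of it. ZNF131, ZNF827, ZNF532 and ZNF331 followed with 12 each, as did ZNF7 and ZNF875, which had lower sums. ZNF331, an imprinted gene, had the lowest share in its leading transcript of the 212 genes, a share that depends on the number of transcripts. Its highest transcript, ZNF331-202 with 241, held 20.0% of 1205, beside ZNF331-201 with 217 and ZNF331-203 with 191. ZNF131 gave 32.7% to ZNF131-212 and 19.8%, or 518, to ZNF131-216, which is annotated for nonsense-mediated decay. ZNF532 gave 65.4% to ZNF532-223. ZNF331 and ZNF532, both with 12 listed transcripts, thus differed in the share of their leading one. At the other end, ZNF629 with 3296, ZNF512B with 3123 and ZNF703 with 2580 were the highest genes with 1 listed transcript. ZNF703 is a transcriptional repressor amplified in luminal breast cancer.

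The transcript with most reads was protein-coding in 217 of the 229 genes, or 94.8%, against 87.4% of all genes with a sum of at least 500. It was so in 91.7% of the ZSCAN, ZKSCAN and ZFP genes and 100.0% of the ZBTB genes. Of the 229 genes, 225 were annotated as protein-coding, whereas all genes with that sum were not limited by gene type. The part of gene type in this difference was not tested. The 12 exceptions included 4 pseudogenes, which the symbol rule admits by their final P. Of these, ZNF788P had a sum of 936, ZNF702P 712, ZNF767P 688 and ZNF252P 552. The highest of the 12 was ZNF598 (chr16:1997654-2009821), which encodes the ubiquitin ligase that senses collided ribosomes. Of its 3673, ZNF598-210, a processed transcript, held 1228, while the only protein-coding one listed, ZNF598-202, held 874. Its 4 retained-intron transcripts had 490, 453, 233 and 62.7. Protein-coding transcripts thus held 23.8% of the reads of ZNF598.

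ZNF592 (chr15:84748592-84806445) and ZNF687 (chr1:151281522-151292176) encode partners in a zinc finger complex with ZMYND8, and in both the leading transcript was annotated for nonsense-mediated decay. ZNF592-202 had 2632 and the protein-coding ZNF592-203 had 1039, so the former held 71.7%. ZNF687-206 had 1618, or 62.3% of 2595, against 694 for the protein-coding ZNF687-202. The annotated span of ZNF687 overlaps that of PI4KB, whose sum was 4129. For ZNF592 no other listed gene that was found in RefSeq overlapped. In ZNF83, ZNF83-214, a processed transcript, had 981 of 1565 and the protein-coding ZNF83-202 had 317. In ZNF707, ZNF707-226, annotated for nonsense-mediated decay, had 548 of 1236 and the protein-coding ZNF707-201 had 438. The remaining 3 were ZNF26, ZNF326 and ZNF782, of which ZNF26 and ZNF782 were named after their values were seen. Their leading transcripts were a retained-intron transcript with 418, a nonsense-mediated decay transcript with 284 and a processed transcript with 217.

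**Figure D3:**
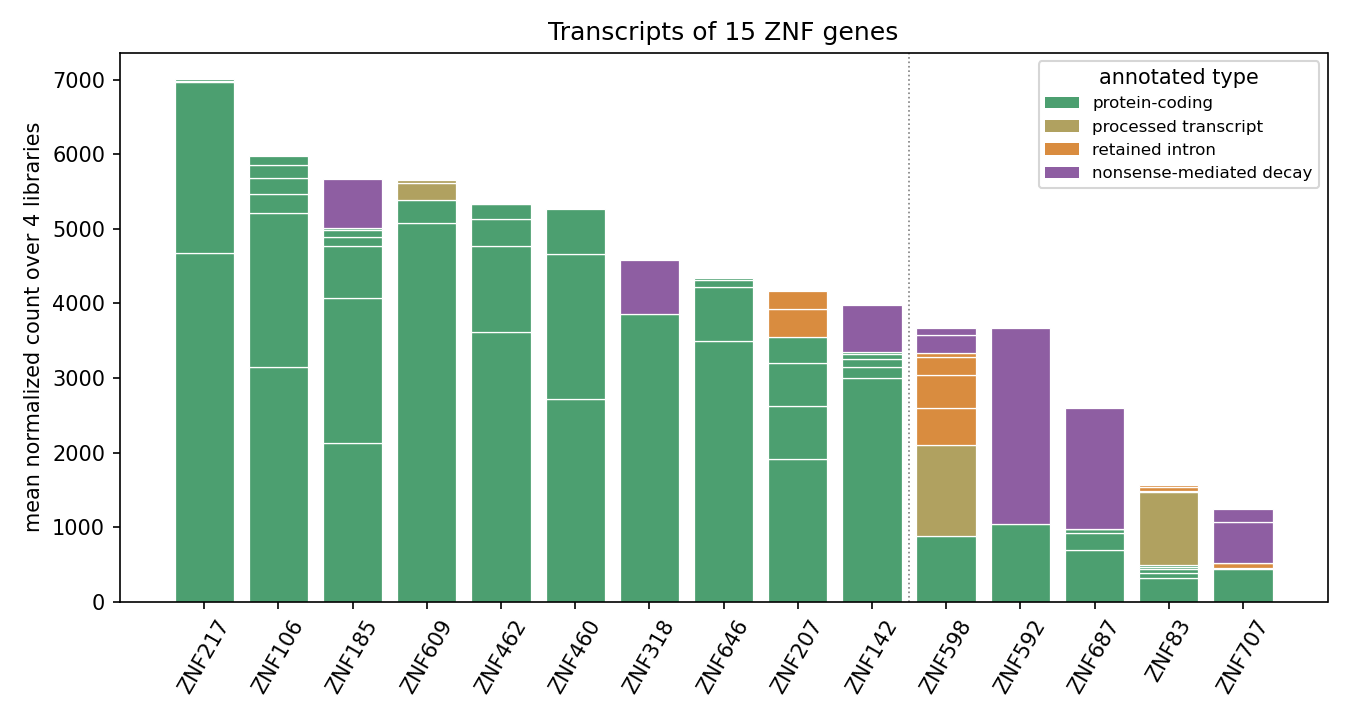
Each bar is 1 gene and each segment 1 transcript, with the mean normalized count over the 4 libraries on the y axis and the annotated type as colour. The 10 genes with the highest sums stand left of the dotted line, and on the right stand the 5 highest genes whose leading transcript was not protein-coding, such as ZNF592 with 2632 of 3670 in a nonsense-mediated decay transcript.

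Reads that fit several transcripts were divided among them by RSEM, so the value of 1 transcript may rest on few reads of its own. In 2 genes, 2 transcripts had the same value to 6 decimals. ZNF808-206, annotated for nonsense-mediated decay, and ZNF808-207, protein-coding, had 227 each. ZNF550-201 and ZNF550-204 had 34.4 each. These genes were noticed after the values were seen. The annotated spans of 44 of the 229 genes overlapped that of another listed gene found in RefSeq, and in 10 of these an overlapping gene had the higher sum. Only 16021 of the 20298 listed genes were found there by symbol, so overlaps with the rest were not searched. Per the paper, the RNA was depleted of ribosomal RNA and the libraries were made with a stranded kit. Whether the authors' counting used strand is not given in the sources used here.

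All 7 genes of a list of ZNF genes that act on RNA or translation were among the 229, with sums from 657 for ZNF326 to 5981 for ZNF106 and a median of 2470. ZNF638, a splicing and RNA-binding protein of nuclear speckles, had 2470, of which the retained-intron transcript ZNF638-219 held 488. ZNF346, which binds double-stranded RNA, had 719, of which ZNF346-201 held 177. ZNF622, a ribosome biogenesis factor, had 2433 in 1 transcript. All 15 genes of a list of transcription and chromatin regulators were among the 229, from 504 for ZNF143 to 7010 for ZNF217, with a median of 2358. The lists were made of well-studied genes, with earlier results of these data known, and are not a sample of the family. Of all 476 listed ZNF genes 229 reached the minimum, and of all 20298 listed genes 7840 did. Membership of the listed genes is thus a description and was not tested. Of 7 genes of a list on retroelements, heterochromatin and imprinting, 5 were among the 229. ZNF445, which maintains imprints, had 3104 and ZNF274, which binds the tails of zinc finger genes, had 3091. ZNF91, a repressor of SVA elements, had 1211, ZNF649 had 1129 and ZNF808 had 842. ZNF93, a repressor of LINE elements, had 236 and ZNF10 had 201, both below the minimum.

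All 14 genes of a fixed list, drawn up as partners of KRAB zinc finger proteins, were among the 20298 listed genes. Over the 14 genes of that list the sums ran from 789 for HDAC2 to 25719 for TRIM28, with a median of 2279. SETDB1 had 2134, ATF7IP, its cofactor, 4938 and MORC2 4551. The HP1 genes CBX1, CBX3 and CBX5 had 1778, 1044 and 2214. CHD4 had 21328, CHD3 9532 and HDAC1 2791. TASOR had 2344, MPHOSPH8 1710 and PPHLN1 866. Whether each of these genes acts with KRAB zinc finger proteins was not tested. TRIM28 thus had more reads than any of the 229 ZNF genes, without correction for length.

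On chromosome 19 lay 97 of the 229 genes, or 42.4%, against 7.96% of the 7590 genes with a sum of at least 500 that were found in RefSeq. On it lay 2 of the ZBTB genes, or 7.69%, and 5 of the ZSCAN, ZKSCAN and ZFP genes, or 20.8%. Chromosome 7 followed with 17, chromosome 16 with 16 and chromosome 1 with 11. The share was lower above the minimum than below it, since 54.3% of the 245 matched ZNF genes below 500 lay on chromosome 19. The median sum was 922 for the 97 genes on chromosome 19, with quartiles of 684 and 1394, and 1266 for the other 132, with quartiles of 760 and 2065. The ranges overlapped widely. Of the 50 genes with the highest sums, 16 lay on chromosome 19, and of the 50 with the lowest, 26 did. Both groups had a median of 5 transcripts per gene. The leading transcript held a median of 58.9% on chromosome 19 and 61.8% elsewhere, and it was protein-coding in 94 of 97 and 123 of 132 genes.

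**Figure D4:**
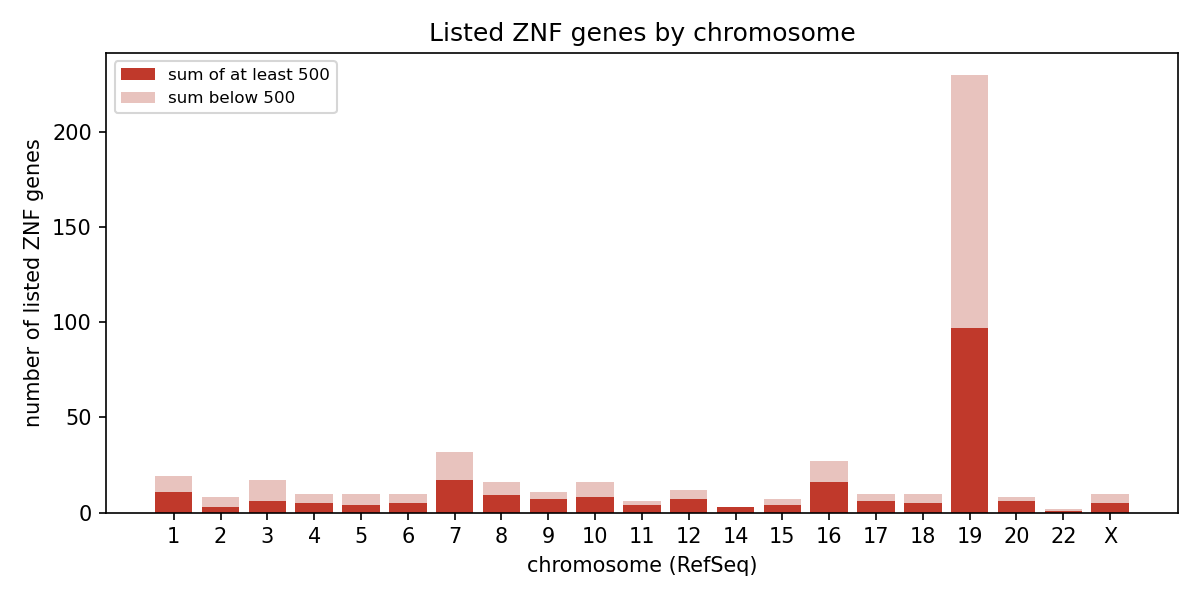
Bars count the listed ZNF genes on each chromosome, split into those with a summed mean normalized count of at least 500 (dark) and below 500 (light). Chromosome 19 holds 97 dark and 133 light genes, and the next highest dark bar is chromosome 7 with 17.

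Many of the genes lay near each other. When genes less than 500 kb apart were joined, 90 of the 229 fell into 8 runs of 5 or more, and 75 of these were in 6 runs on chromosome 19. The runs were defined after the positions were seen. The largest held 24 genes from ZNF264 to ZNF446 (chr19:57191500-58489533), with sums from 508 for ZNF549 to 5274 for ZNF460 and a median of 1193. A run of 19 genes from ZNF175 to ZNF331 (chr19:51571283-53580269) had sums from 508 for ZNF480 to 2246 for ZNF841 and a median of 913. A run of 9 genes on chromosome 7 (chr7:149069641-149867479) had a median of 1602 and its maximum at ZNF282 with 2909. Genes of 1 run thus differed by several-fold in reads assigned. Only genes of the 229 were joined, so listed ZNF genes below 500 in these stretches were skipped. The lowest sums are therefore bounded by that minimum, and the genes joined need not be adjacent.

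Promoter windows of 300 bases, from 250 before to 50 from the start site, were found in RefSeq (GRCh38.p14) for 198 of the 229 genes. Over the 19503 pairs, the median share of 8-base words in common was 0.523%. In 53 pairs it was at least 10%, all of them with both genes on chromosome 19, and these pairs involved 23 genes. The 2 most alike pairs are shown, since they show how alike genes of 1 chromosome can be at their starts, and the capitals mark the longest run identical in both windows of a pair. They were chosen after the comparison was made.
ZNF714: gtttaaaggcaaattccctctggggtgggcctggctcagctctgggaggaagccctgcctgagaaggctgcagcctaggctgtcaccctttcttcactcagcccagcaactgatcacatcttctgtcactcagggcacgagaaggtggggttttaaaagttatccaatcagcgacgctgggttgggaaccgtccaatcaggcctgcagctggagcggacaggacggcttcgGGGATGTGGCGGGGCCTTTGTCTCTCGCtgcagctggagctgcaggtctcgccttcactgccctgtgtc
ZNF431: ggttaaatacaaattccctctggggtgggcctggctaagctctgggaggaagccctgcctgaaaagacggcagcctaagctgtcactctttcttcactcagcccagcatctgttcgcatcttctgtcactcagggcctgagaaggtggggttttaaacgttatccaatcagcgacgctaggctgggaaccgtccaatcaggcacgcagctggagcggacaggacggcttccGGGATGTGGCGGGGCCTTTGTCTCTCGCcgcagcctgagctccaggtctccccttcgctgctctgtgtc
ZNF611: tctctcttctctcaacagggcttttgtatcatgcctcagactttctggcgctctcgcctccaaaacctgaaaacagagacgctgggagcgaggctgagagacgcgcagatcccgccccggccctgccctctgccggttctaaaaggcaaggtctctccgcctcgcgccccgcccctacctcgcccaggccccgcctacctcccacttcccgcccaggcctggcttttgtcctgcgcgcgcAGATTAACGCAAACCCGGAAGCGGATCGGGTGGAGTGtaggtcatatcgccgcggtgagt
ZNF808: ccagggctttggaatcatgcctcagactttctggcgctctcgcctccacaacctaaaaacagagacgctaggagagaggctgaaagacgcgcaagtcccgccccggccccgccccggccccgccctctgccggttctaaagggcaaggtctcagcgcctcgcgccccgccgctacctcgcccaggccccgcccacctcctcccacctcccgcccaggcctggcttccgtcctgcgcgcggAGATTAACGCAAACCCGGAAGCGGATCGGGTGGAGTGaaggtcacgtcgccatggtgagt

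ZNF714 (chr19:21081953-21082252, plus strand) and ZNF431 (chr19:21141790-21142089, plus strand) shared 35.0% of their 8-base words and a run of 28 bases across the start site, at positions -19 to 8 counted from the start as 0. Their windows lie 59.8 kb apart. The sum was 1266 for ZNF714 and 891 for ZNF431. ZNF611 (chr19:52734995-52735294, minus strand) and ZNF808 (chr19:52527418-52527717, plus strand) shared 30.8% and a run of 37 bases at positions -10 to 26. Their sums were 592 and 842. Over the 20 most alike pairs, the higher sum exceeded the lower by 1.01-fold to 3.08-fold, with a median of 1.51-fold. The widest difference was between ZNF813 with 509 and ZNF83 with 1565. All sums were at least 500 by selection, and some genes, such as ZNF431, recur among the pairs. No fold was computed for pairs with unlike windows. Whether like windows go with like sums was therefore not tested. The likeness of the transcripts of these genes was not measured, and its part in the counts was not tested.

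In base composition the 198 windows had a median GC content of 63.0% and a median ratio of observed to expected CpG of 0.818, against 66.3% and 0.863 in the 6275 windows of all genes with a sum of at least 500, and 58.3% and 0.580 in all 27305 windows. A TATA box, TATAAA on either strand, was found in 5 of 198, or 2.53%, against 5.34% and 12.0%. The GC box GGGCGG was found in 67.7%, against 73.2% and 44.6%. The core CCGGAAG of ETS factors, on either strand, was found in 86 of 198, or 43.4%, against 21.6% and 10.7%. It was found in 47.7% of 88 windows on chromosome 19 and in 40.0% of 110 elsewhere, and the run shared by ZNF611 and ZNF808 holds it. The letters ACTACAA, part of the motif of ZNF143, were found in 7.07%, against 3.92% and 2.95%, and the cyclic AMP response element TGACGTCA in 5.05%, against 3.70% and 1.98%. Each motif was searched separately on both strands, overlaps between motifs were not removed, and a match is a description and not a site. Of the motifs searched, the ETS core exceeded its share in all genes with the same minimum by the most percentage points. Related windows on chromosome 19 are not independent of each other.

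The labels were checked against marker genes. VIM, CD44, CAV1 and AXL, which mark mesenchymal breast cancer lines, had sums from 7624 for CAV1 to 80785 for VIM. ESR1 and PGR were not listed, CDH1 had 10.0 and GATA3 had 584. GATA3 is a luminal marker, and its reads were above the minimum used for the ZNF genes. YTHDC1, the overexpressed gene, had 55488, of which YTHDC1-207 held 33599.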

How the data were processed

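RIP-seq of MDA-MB-231 cells gave 2 Flag-YTHDC1 IP and 2 input libraries. Per the submitters' processing notes and methods, the authors mapped reads with STAR (2.7.2b) to GENCODE transcripts of GRCh38, estimated transcript reads with RSEM (1.2.31), dropped transcripts with few reads, corrected batches with RUVSeq and compared the groups with DESeq2. The deposited signal used here is the authors' mean normalized count (read coverage scaled between libraries) of each transcript over all 4 libraries. The table also holds the authors' log2 fold changes, standard errors, p-values and adjusted p-values of their comparison, which were not used. The labels give IP and input groups, and so does the paper's supplementary figure legend, for cells overexpressing YTHDC1. The paper's RIP-seq analysis methods name a knockdown instead.

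Counts were summed per gene with python 3.11.15, pandas 2.3.3, numpy 2.4.6 and scipy 1.17.1, and figures drawn with matplotlib 3.10.9. The sums were tested on simulated data. The members and gene lists were chosen with earlier results of these data known. Genes named were the 10 highest, 3 on each side of the minimum of 500, the 5 with most transcripts (ties by sum), the 5 highest led by a transcript that is not protein-coding, the 3 highest with 1 transcript, and fixed lists. Promoter, run and overlap measures were added after the values were seen. Positions and promoters came from RefSeq (GRCh38.p14) by symbol, which matched all 229 genes. The alternatives were other minimums, other sums and a minimum of 10 per transcript.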

Additional observations from a re-analysis of the deposited data

How the results depend on the processing

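No value per library was used, so no test, leave-one-out or other count model was run, and neither were the planned protein measures. No paired analysis was possible because the values are means over all libraries. A share of genes or transcripts was read as moved outside its 95% exact binomial interval, the median share of the leading transcript outside a 95% interval from its order statistics, and a count or a share of reads beyond 1.5-fold. These intervals served only as a set width for reading a change and measure no sampling error. Transcripts of a gene are not independent, all values share the same libraries, and the alternatives reuse many of the same genes. With a minimum of 1000 there were 129 genes, 33.3% on chromosome 19. When the leading transcript alone had to reach 500 there were 148 genes, 35.8% on chromosome 19, and the leading transcript held a median of 69.9%. When only protein-coding transcripts were summed, 71.4% of transcripts were protein-coding and 98.5% of genes were led by one. Selecting on the leading transcript or on protein-coding transcripts favours genes in which these are high, so such rises are no separate result. With transcripts of at least 10 only, 70.5% were protein-coding. The other values, including those with a minimum of 250 (334 genes), did not move. Without the 4 pseudogenes, an alternative added after seeing the data, 96.4% of 225 genes were led by a protein-coding transcript.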
